A study of Mus musculus with 2 samples.

Results

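B cells of the mouse kidney were examined in single-cell RNA sequencing of 1 control kidney and 1 kidney with ischaemia-reperfusion injury (IRI). IRI means that the renal artery is closed for a time and blood then returns. The B cells are the cells to which the deposited annotation gives the type B Cell. They number 96 of 11759 cells, with 27 of 6589 cells in the control library and 69 of 5170 in the IRI library. The mice were C57BL/6, wild-type and 9 weeks old, and each kidney was digested with Liberase and DNase I to a suspension of single cells. The control mouse was normal, and the IRI mouse had injury of 1 kidney with removal of the opposite one. The labels name no nephrectomy for the control and give no time after injury, so the effects of ischaemia and of the nephrectomy cannot be told apart. With 1 library per group there is no replicate check, no test between the groups was possible, and all intervals cover counting error only.

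B cells carry a membrane immunoglobulin as their antigen receptor, which signals through the paired chains Cd79a and Cd79b. Coreceptors strengthen that signal, and inhibitory receptors such as Cd22 and Siglecg dampen it. B cells also take up antigen through the receptor and present it to T cells on class II molecules. In the kidney they are a minor part of the resident leucocytes, and after injury they can enter with other white cells.

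The annotation was checked against Cd79a, Cd79b and Ms4a1, the CD20 antigen. The fourth marker, Ighm, and the other immunoglobulin constant genes were not analysed here. In the control library 9 B cells had all 3 markers above 0, 16 had 2 and 2 had 1. In the IRI library 32 had all 3, 29 had 2, 7 had 1 and 1 had 0. All 96 B cells lay in 1 of the 29 deposited clusters, which held no other cell. The cells had been clustered and named from these same genes, so the markers describe the label and are no test of it.

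The promoter of Vpreb3, which encodes a protein that binds newly made immunoglobulin chains in B cells, is shown because it carries the octamer. The octamer is the DNA element bound by Oct factors together with the B cell coactivator encoded by Pou2af1. The B cell identity list holds 20 gene names, among which Fcmr and Faim3 name the same gene. Of the 20 names, 12 had a promoter in the RefSeq table (GRCm38.p6), and 1 of these, Vpreb3, held ATGCAAAT or its other strand ATTTGCAT. Among all 27025 genes with a promoter of 300 bases, 532 (1.97%) held it. The 250 bases before the start of Vpreb3 are chr10:75948050-75948299 on the + strand, with the octamer in capitals beginning 45 bases before the start.
Vpreb3: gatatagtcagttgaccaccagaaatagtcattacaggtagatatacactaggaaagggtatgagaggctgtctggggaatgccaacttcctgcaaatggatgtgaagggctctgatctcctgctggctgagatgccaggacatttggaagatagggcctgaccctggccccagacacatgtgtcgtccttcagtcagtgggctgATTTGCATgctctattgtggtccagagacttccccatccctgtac
An EBF-type element, CCCNNGGG, which reads the same on both strands, was found in 3 of the 12 promoters (Bank1, Cd22 and Spib) and in 15.4% of all genes. A match describes the letters only. Vpreb3 itself had a mean of 0.259 corrected counts per control B cell (7 of 27 cells above 0) and 0.261 per IRI B cell (17 of 69 cells). Among T cells it was above 0 in 0 of 59 control and 1 of 97 IRI cells. A corrected count is the deposited depth-corrected number of transcripts of a gene in a cell.

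B cells made up a larger share of the IRI library than of the control library. They were 0.410% of control cells (95% Clopper-Pearson interval 0.270 to 0.596) and 1.33% of IRI cells (1.04 to 1.69). The ratio of the shares was 3.26, with an exact conditional 95% interval of 2.06 to 5.29. Without the proximal tubule types the ratio was 2.76 (1.74 to 4.47).

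Within the immune cells (macrophage types, neutrophils, T cells and B cells) the shares were closer. There B cells were 27 of 414 control cells (6.52%, 4.34 to 9.35) and 69 of 814 IRI cells (8.48%, 6.66 to 10.6), a ratio of 1.30 with an interval of 0.822 to 2.11 that includes 1. Among T and B cells together, the B cell share was 31.4% (21.8 to 42.3) in control and 41.6% (34.0 to 49.5) in IRI, a ratio of 1.32 (0.837 to 2.15). Of the immune cells, T cells were 14.3% and 11.9%, macrophages 78.7% and 66.6%, and neutrophils 0.483% and 13.0%, in control and IRI. The larger share of B cells among all cells was therefore accompanied by larger numbers of T cells (59 and 97) and macrophages (326 and 542) in a library with fewer cells.

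The ratio depended on how deeply the counted cells had been sequenced. Among cells with at least 2000 raw unique molecular identifiers (UMIs), 11 of 3575 control cells and 45 of 2494 IRI cells were B cells, a ratio of 5.86 (2.99 to 12.6). The median B cell had 1837 raw UMIs in control (870 to 5524) and 2062 in IRI (633 to 8764), so this limit divides the 2 groups near their centres. With a limit of 1000 UMIs the ratio was 3.37 among all cells. Among immune cells with at least 1000 UMIs it was 1.03 (0.647 to 1.69), a setting added after the data were seen. A share in a dissociated suspension reflects both the tissue and how well each type was released, and these cannot be told apart.

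**Figure D1:**
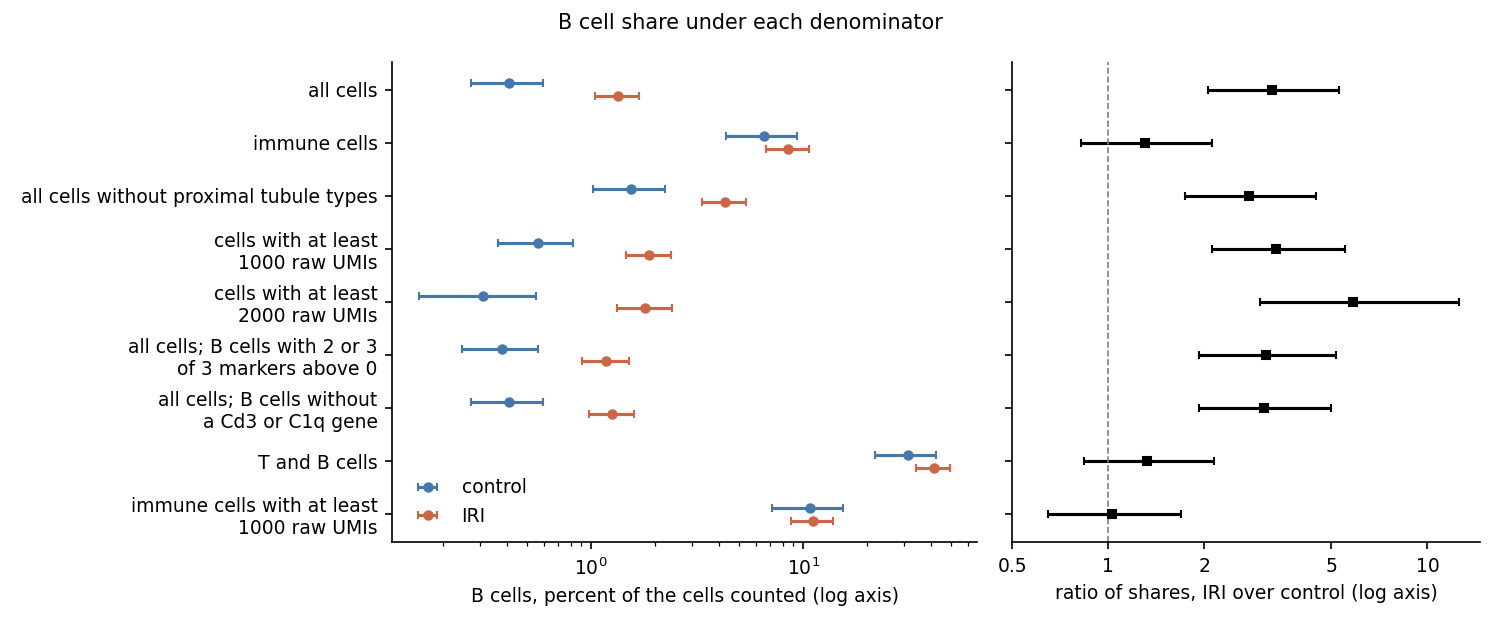
B cell shares in percent of the cells counted (left, log axis) and their ratio, IRI over control (right, log axis), for each denominator and setting. Points are the values, and bars are exact 95% intervals for counting error. The ratio lies above 1 with its whole interval wherever tubule or other non-immune cells are counted, and the interval includes 1 for the 3 denominators made of immune cells alone.

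Depth and quality of the B cells were similar between the libraries. B cells held 54366 raw UMIs in control and 152800 in IRI, with a median of 717 and 728 genes per cell. The median share of corrected counts from mitochondrially encoded genes was 12.2% and 12.8%, and that from ribosomal protein genes 39.8% and 40.8%. T cells were deeper, with medians of 2606 and 3345 UMIs, and macrophages had medians of 937.5 and 2005. Over all cells the libraries held 24169073 and 16816996 raw UMIs. There were 55 cell barcodes present in both libraries, 1 of them in a B cell.

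The 3 marker genes were at nearly the same level in both libraries. Cd79a had a mean of 4.04 corrected counts per control B cell (26 of 27 cells above 0, highest 9) and 3.77 per IRI B cell (66 of 69 cells, highest 11). Its partner Cd79b had means of 2.33 (23 of 27 cells) and 2.09 (57 of 69 cells). Ms4a1 had means of 0.815 (12 of 27 cells) and 0.783 (38 of 69 cells). None of these 3 came near a 2-fold difference.

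Other identity genes had these values. Ebf1, a transcription factor that sets the B lineage, had means of 4.26 and 3.51 (26 of 27 and 64 of 69 cells). Ly6d, a surface protein of the B lineage, had means of 3.07 and 2.67 (22 of 27 and 55 of 69 cells). Fcmr, the receptor for the Fc part of IgM, was above 0 in 22 of 27 control cells (81.5%, 61.9 to 93.7) and in 39 of 69 IRI cells (56.5%, 44.0 to 68.4), with means of 1.33 and 1.04. The intervals of the Fcmr shares overlap. Pax5, which holds cells to the B lineage, was scarce, at 0.185 and 0.290 (5 of 27 and 14 of 69 cells).

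Among 1879 genes measured in B cells, meaning at least 10 summed corrected counts, 171 (9.1%) were at least 2-fold higher in IRI and 90 (4.79%) at least 2-fold lower. These counts are of log2 ratios of the means with 0.05 added to each, and the 2-fold limit is a size and not a test. The 10 counts are summed over 27 control and 69 IRI cells, so genes higher in IRI meet that filter more easily. With at least 30 summed values, 11 genes were higher and 12 lower. The median log2 ratio over all measured genes was 0.04, with a 5% to 95% range of -0.99 to 1.18. Of the 20 names of the identity list, 18 are among the genes analysed and 17 were measured: 1 was past 2-fold higher, 0 lower, and their median was -0.05. A B cell had a median of 9 identity genes above 0 in control (4 to 13) and 8 in IRI (3 to 14). The 1 identity gene past the limit was Cd22, listed at 0 in all 27 control cells and above 0 in 10 of 69 IRI cells (14.5%, 7.18 to 25.0). Cd22 met the filter of 10 summed corrected counts through IRI cells alone, so its call is no support for a difference.

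**Figure D2:**
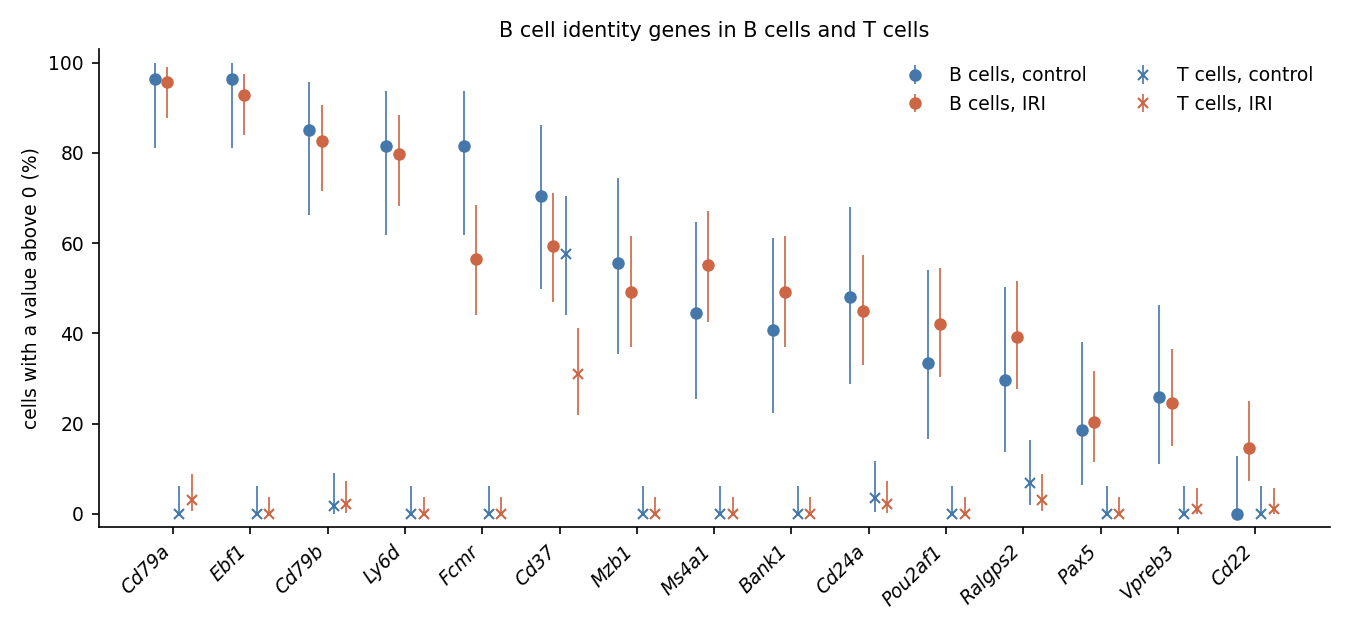
Percent of cells with a value above 0 for 15 B cell genes in B cells (circles) and T cells (crosses) of the control (blue) and IRI (orange) library, with exact 95% intervals. Cd79a stands at 96.3% and 95.7% of B cells and at 0.0% and 3.09% of T cells, and Cd37 is the only gene of the panel with a large share in T cells.

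T cells and macrophages of the same library served as the comparison for what was particular to the B cells. Of the 1879 genes, 115 (6.12%) were at least 2-fold higher in B cells than in T cells in both libraries, and 212 (11.3%) were higher than in macrophages in both. The types were set from the same cells, so these are descriptions. Of the 17 measured identity genes, 15 were past 2-fold over T cells in both libraries and 16 over macrophages. In T cells Ebf1, Ly6d, Fcmr, Ms4a1, Mzb1 and Pou2af1 were listed at 0 in both libraries.

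By the lower of the 2 libraries' ratios, the leading genes over T cells were Cd74, Ebf1, Ly6d, H2-Aa, Cd79a, H2-Ab1, H2-Eb1, Cd79b, H2-DMb2, Fcmr, Ms4a1 and Mzb1. Over macrophages they were Ebf1, Cd79a, Ly6d, Fcmr, Cd79b, Ltb, Ms4a1, Ptprcap, Mzb1, Gimap1, Bank1 and H2-DMb2. Ltb, the lymphotoxin beta subunit by which lymphocytes shape lymphoid tissue, was shared with T cells. Its means were 1.52 and 1.36 in B cells, 0.983 and 1.47 in T cells, and 0.0245 and 0.0332 in macrophages, for control and IRI.

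Of 22 genes of the B cell receptor pathway 15 were measured, 2 were past 2-fold higher, 0 lower, and the median log2 ratio was -0.10. Over all measured genes 9.1% were higher and 4.79% lower, so this count is near the background. The 2 were Cd22, which met the filter for low values through IRI cells alone, and Lyn. Lyn is a Src-family kinase that phosphorylates both the receptor and its inhibitory partners. Lyn had a mean of 0.0741 in control (2 of 27 cells, 7.41%, 0.910 to 24.3) and 0.304 in IRI (18 of 69 cells, 26.1%, 16.3 to 38.1), a log2 ratio of 1.51. In T cells Lyn was at 0.0678 and 0.0412. The shares' intervals for Lyn in B cells overlap.

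Other members of the pathway stayed within the limit. Syk, the kinase that docks on the receptor, had means of 0.333 and 0.377. The adaptor Blnk had 0.185 and 0.290, and Prkcb, a kinase downstream of the receptor, had 0.444 and 0.246. Ptpn6, the phosphatase recruited by inhibitory receptors, had 0.370 and 0.174, a log2 ratio of -0.91. Siglecg, an inhibitory lectin of B cells outside this list, had means of 0.370 (9 of 27 cells) and 0.783 (36 of 69 cells), a log2 ratio of 0.99, and was listed at 0 in all T cells of both libraries. Siglecg lies just inside the limit, and it passed it when the deepest B cell of each library was left out (1.09).

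Of 19 B cell transcription factors 16 were measured, with 1 past 2-fold higher, 1 lower and a median of 0.19, again near the 9.1% and 4.79% of all measured genes. The lower one was Bcl11a, needed for lymphoid development, at 0.556 in control (10 of 27 cells, highest 4) and 0.159 in IRI (11 of 69 cells, highest 1), a log2 ratio of -1.53. The higher one was Tcf3, an E protein that acts early in the lineage, at 0.0370 (1 cell) and 0.145 (10 cells). Nearly all of its 11 summed corrected counts were in IRI cells, through which it met the filter, so its call is no support for a difference. Klf2, which keeps lymphocytes quiescent and recirculating, had means of 1.85 and 2.96 and a log2 ratio of 0.66, and in T cells it was at 1.58 and 1.41. Foxp1 (0.963 and 0.986), Mef2c (1.26 and 1.19) and Pou2f2 (0.481 and 0.493) hardly differed.

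Genes of resting follicular B cells were found in both libraries. Of the follicular and resting B cell genes, 11 of 12 were measured, with 0 past 2-fold higher, 1 lower and a median of -0.36. Of all measured genes 4.79% were past 2-fold lower. Of the 11 log2 ratios 7 lay below 0 and 4 above. The sum of the list per B cell went the other way from the median, averaging 9.85 for control and 11.1 for IRI. Btg1, at 4.07 and 5.19 corrected counts per B cell (log2 ratio 0.35), made up much of that sum. Fcer2a, the low-affinity IgE receptor CD23 of follicular B cells, was above 0 in 33.3% of the B cells of each library, with means of 0.407 and 0.435. Cxcr5, the receptor that leads B cells to follicles, had means of 0.222 and 0.217. Ccr7, a receptor for homing to lymph nodes, had means of 0.852 and 0.638. S1pr1, the receptor for egress from tissue into blood and lymph, was the member past the limit, at 0.333 (8 of 27 cells, 29.6%, 13.8 to 50.2) and 0.101 (6 of 69 cells, 8.70%, 3.26 to 17.97). Its log2 ratio was -1.34 in B cells and 0.91 in T cells.

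Genes of other states had few counts. Of the germinal centre genes 8 were among those analysed and none had 10 summed corrected counts: S1pr2, Fas, Gcsam, Mybl1, Basp1 and Efnb1 were listed at 0 in all 96 B cells, and any of the 8 was above 0 in 0 of 27 control and 3 of 69 IRI cells. Of the plasma cell genes, Jchain, which joins secreted immunoglobulin, was above 0 in 2 control and 0 IRI cells. Xbp1 was above 0 in 1 and 5 cells and Prdm1, the plasma cell regulator, in 1 and 0. Mzb1, a chaperone also made by resting B cells, had means of 0.778 and 0.826. A gene listed at 0 in a library limits only the share of cells with a count of it, to 11.1% of 27 cells and 4.35% of 69 (3 counts of the total), and cells that express a gene at a level below this depth are not covered.

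Of the 8 genes of immature cells analysed, Vpreb1, Myb, Il7r and Erg were listed at 0 in all B cells. Others were present, and at least 1 of the 8 was above 0 in 15 of 27 control and 42 of 69 IRI cells. Vpreb3, a member of this list too, was above 0 in 7 of 27 and 17 of 69 cells. Cd24a, high on immature cells but also present on mature ones, had means of 0.667 and 0.870. Of 15 B-1 and marginal zone genes, 10 were listed at 0 in all B cells, Cd5 and Cd9 among them. Apoe, an apolipoprotein, was above 0 in 12 of 27 and 26 of 69 B cells (means 0.926 and 0.812) against 1 of 59 and 12 of 97 T cells (0.0169 and 0.144). Macrophages of the same libraries had Apoe means of 5.83 and 6.47.

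Most measured class II antigen presentation genes were lower in IRI B cells, each by less than 2-fold. Of 13 genes 12 were analysed and 10 measured: 0 were past 2-fold in either direction, 9 of 10 had a log2 ratio below 0, and the median was -0.29. Ciita, the transactivator of class II genes, had 9 summed corrected counts and so was not among the measured genes. It had means of 0.222 (5 of 27 cells) and 0.0435 (3 of 69 cells), a log2 ratio of -1.54. Cd74, the invariant chain that escorts class II molecules, had means of 27.3 and 21.3. H2-Ab1 had means of 6.26 (26 of 27 cells) and 3.54 (60 of 69 cells), a log2 ratio of -0.82, and was among the 12 lowest genes under the rule for named genes. H2-Eb1 had 5.59 and 3.39, and H2-Aa 5.74 and 4.72. The summed class II value per B cell had a median of 51 in control (14 to 72) and 39 in IRI (10 to 66), so the cells of the 2 libraries overlap over most of the range.

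The same genes in macrophages differed more. There 6 class II genes were past 2-fold lower and the median was -1.07, where 158 of the 7893 genes measured in macrophages (2.0%) were past 2-fold lower. Macrophage Cd74 had means of 50.1 and 8.98, and H2-Ab1 15.2 and 2.92. In control the mean of Cd74 was higher in macrophages than in B cells, and in IRI it was higher in B cells. H2-DMb2 and H2-Ob, accessory chains that tune peptide loading and are high in B cells, had B cell means of 1.59 and 1.42, and of 0.852 and 0.768. In macrophages they were at 0.0368 and 0.0757, and at 0.0521 and 0.0185. Cx3cr1+ macrophages were 106 cells in control and 19 in IRI, and the part of this makeup in the macrophage difference was not tested.

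**Figure D3:**
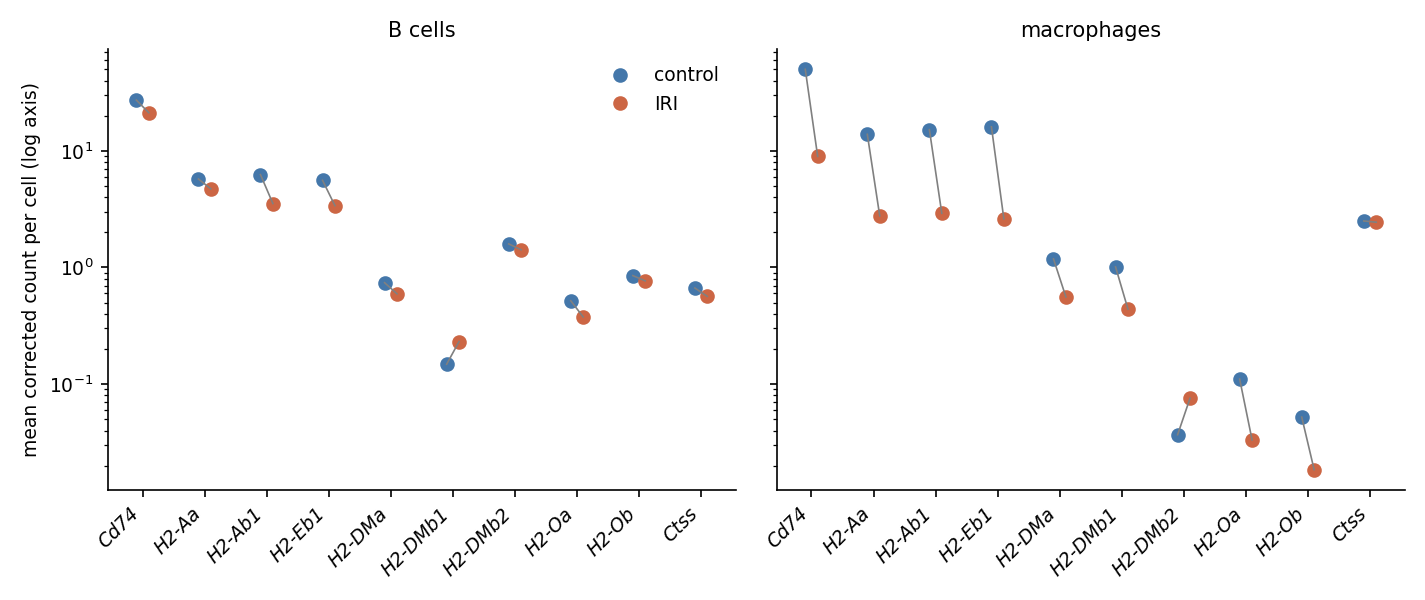
Mean corrected count per cell (log axis) of 10 class II presentation genes in B cells (left) and macrophages (right), control in blue and IRI in orange, with a line joining the 2 libraries. In B cells 9 of 10 genes lie lower in IRI by less than 2-fold, from 27.3 to 21.3 for Cd74, while in macrophages Cd74 goes from 50.1 to 8.98.

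Class I genes showed 0 of 8 measured past 2-fold and a median of -0.04. B2m, the light chain of class I molecules, had means of 3.85 and 2.93, and H2-D1 had 1.96 and 1.41. In T cells B2m was at 6.86 and 6.84.

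Receptors for survival factors were present in part of the cells. Tnfrsf13c, the BAFF receptor, was above 0 in 5 of 27 and 17 of 69 B cells (means 0.185 and 0.275) and listed at 0 in T cells. Tnfrsf13b, the receptor TACI, had means of 0.148 and 0.261. Of 14 survival and apoptosis genes 6 were measured, with 1 past 2-fold higher (9.1% of all measured genes were) and a median of 0.56. That gene was Bax, a promoter of mitochondrial cell death, at 0.148 (4 of 27 cells, 14.8%, 4.19 to 33.7) and 0.406 (26 of 69 cells, 37.7%, 26.3 to 50.2). Bcl2, which opposes it, had means of 0.333 and 0.217.

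The ligands of these receptors were looked for in the other cells, since all 7 ligand genes analysed were listed at 0 in all B cells. Tnfsf13b, which encodes BAFF, was above 0 in 24 of 106 control Cx3cr1+ macrophages (22.6%, 15.1 to 31.8) and in 4 of 19 of those in IRI (21.1%, 6.05 to 45.6). In IRI it was above 0 in 5 of 217 Ccr2+ macrophages (2.30%, 0.752 to 5.30) and 5 of 306 resident macrophages. The larger shares belong to the type whose number went from 106 to 19 cells. Cd40lg, by which T cells help B cells, was above 0 in 9 of 59 control T cells and 9 of 97 IRI T cells. Cxcl12, a chemokine read by Cxcr4, had means of 2.77 in 31 control myofibroblasts and 0.629 in 35 IRI myofibroblasts. Cxcr4 in B cells had means of 0.185 (4 of 27 cells) and 0.348 (20 of 69 cells), within the limit.

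Immediate early genes were mostly within the limit. Of 18 immediate early genes 11 were measured: 2 were past 2-fold higher, 0 lower, and 10 of the 11 log2 ratios lay above 0, with a median of 0.57 against 0.04 for all genes, of which 9.1% were past 2-fold higher. In T cells the median of the same genes was -0.15, and in macrophages 0.03. The 2 were Fos, a subunit of the AP-1 factor, at 0.185 (5 of 27 cells) and 0.638 (23 of 69 cells), and Dusp1, a phosphatase that ends stress kinase signals, at 0.0741 (2 of 27) and 0.333 (16 of 69). Junb (2.30 and 2.62), Jund (1.78 and 1.55) and Ier2 (0.481 and 0.507) were within the limit.

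Activation and costimulation genes had 6 measured members, 1 past 2-fold higher (Nfkbid, a nuclear regulator of NF-kB, above 0 in 1 and 9 cells) and a median of 0.30. Of all measured genes 9.1% were past 2-fold higher. Nfkbid met the filter for low values through IRI cells, so its call is no support for a difference. The early activation marker Cd69 was above 0 in 4 of 27 and 16 of 69 cells. Cd86 (0.111 and 0.1304) and Cd83 (0.259 and 0.290) were similar, and Cd80 was listed at 0. The costimulatory receptor Cd40 was above 0 in 1 and 3 cells. Of the cytokine genes, Tgfb1 had means of 0.259 and 0.391, and Tnf, Il6, Ccl22 and Tnfsf9 were listed at 0.

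Interferon response genes had 5 measured members, with 0 past 2-fold lower and a median of 0.11. Ly6e, an interferon-inducible surface protein also high in resting B cells, had means of 6.04 and 5.23. Ifit1, Ifit2, Oasl2, Oas1a, Usp18 and Xaf1 were listed at 0 in all B cells. Among chaperone genes 0 of 7 were past 2-fold and the median was 0.49. Hspa1a and Hspa1b, the most inducible heat shock genes, were listed at 0. Glucocorticoid-responsive genes had a median of -0.04 over 7 measured, with 1 past 2-fold higher (Dusp1, also an immediate early gene), where 9.1% of all measured genes were. Tsc22d3, the glucocorticoid-induced leucine zipper, had means of 1.52 and 1.48 in B cells and of 0.780 and 0.474 in T cells.

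Of 23 cell division genes 12 were listed at 0 in all B cells, including Mki67, Ccnb1 and Cdk1. Top2a was above 0 in 0 control and 2 IRI cells, and 3 of 27 and 7 of 69 cells had at least 2 of the 23 genes above 0. No phase was called from these counts. Among 7 measured glycolysis genes 1, Pgam1, was past 2-fold higher, where 9.1% of all measured genes were. Pgam1 had means of 0.0741 and 0.217 and met the filter for low values through IRI cells. The median was 0.44, while Gapdh had means of 1.37 and 0.768. Of 14 measured actin and motility genes 0 were past 2-fold, with a median of 0.19 in B cells and 0.73 in macrophages. S100 and annexin genes had 5 measured in B cells, 2 past 2-fold higher (S100a6, above 0 in 1 and 14 cells, and Lgals3, in 0 and 5 cells). Of all genes measured in B cells 9.1% were past 2-fold higher. Lgals3 met the filter for low values through IRI cells alone, and S100a6 had counts in only 1 control cell, so neither call is support for a difference. In macrophages all 5 were past 2-fold higher, where 194 of 7893 measured genes (2.46%) were.

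Genes were also ranked across the whole profile by the rule for named genes, which asks for at least 30 summed corrected counts and leaves out genes more abundant in proximal tubule cells. The 12 highest in IRI were Mrps16, Fos, Tagln2, Bax, Trmt112, Atp6v0e, Siglecg, Arhgef1, Reep5, Serp1, Nsa2 and AB124611, with log2 ratios from 1.63 down to 0.81. Mrps16, a mitochondrial ribosomal protein gene, had means of 0.111 (3 of 27 cells, 11.1%, 2.35 to 29.2) and 0.449 (25 of 69 cells, 36.2%, 25.0 to 48.7). Tagln2, an actin-binding protein gene, was above 0 in 1 control cell (3.70%, 0.0937 to 19.0) and in 25 IRI cells (36.2%, 25.0 to 48.7). These intervals do not overlap, but the gene was picked for its ratio in the same cells, so they are no test of a difference. The control mean of Tagln2, 0.148, came from that 1 cell with a value of 4.

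Serp1, which helps proteins through the endoplasmic reticulum, had means of 0.926 (15 of 27 cells) and 1.72 (55 of 69 cells), a log2 ratio of 0.86. T cells had Serp1 means of 0.203 and 0.217. Arhgef1, which acts in lymphocyte migration, had means of 0.370 and 0.754, and T cells had 0.475 and 0.412. Atp6v0e, a subunit of the proton pump of vesicles, had means of 0.259 and 0.594 (6 of 27 and 32 of 69 cells). Trmt112 had 0.222 and 0.536, with 0.475 and 0.454 in T cells.

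The 12 lowest were S100g, Psma1, Zfp36l2, Fam107b, Mif4gd, Paip2, Itm2b, Ddx5, Myl12b, Rabgap1l, Fam49b and H2-Ab1, with log2 ratios from -2.002 to -0.82. Zfp36l2, an RNA-binding protein that restrains lymphocyte growth, had means of 1.19 (17 of 27 cells) and 0.551 (29 of 69 cells), a log2 ratio of -1.04. T cells had Zfp36l2 at 1.92 and 1.01, a log2 ratio of -0.89. Ddx5, an RNA helicase, had means of 1.41 and 0.739, and Itm2b 1.04 and 0.536. Psma1, a proteasome subunit, had 0.556 and 0.232.

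S100g, the calcium-binding protein calbindin-D9k, headed the lower genes at 0.963 (17 of 27 cells, 63.0%, 42.4 to 80.6) and 0.203 (13 of 69 cells, 18.8%, 10.4 to 30.1). T cells above 0 for S100g went from 62.7% to 17.5% as well, although the T cell means were 0.831 and 0.835. Macrophage means were 0.896 and 0.231, and proximal tubule means 0.916 and 0.712. Its share of cells thus differed alike in B and T cells, and S100g is a transcript of kidney tubules.

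Of the 213 measured genes with a mean of at least 1 in either library, 2.35% were past 2-fold: Spp1 higher, and Kap, Zfp36l2, Ttc36 and Scp2 lower. Only Kap reached that mean in both libraries. The others entered the set through the library where they were higher, so their place in it is no support for a difference. Ttc36 had means of 1.0 and 0.290, and Scp2, a lipid transfer protein, 1.0 and 0.377, with proximal tubule means of 4.01 and 2.26. This set was looked at after the values were seen. The 85 ribosomal protein genes (median 0.11) and the 12 mitochondrially encoded genes (median 0.25) had 0 past the limit. Most genes past 2-fold therefore had low means, where 27 control cells give few counts.

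**Figure D4:**
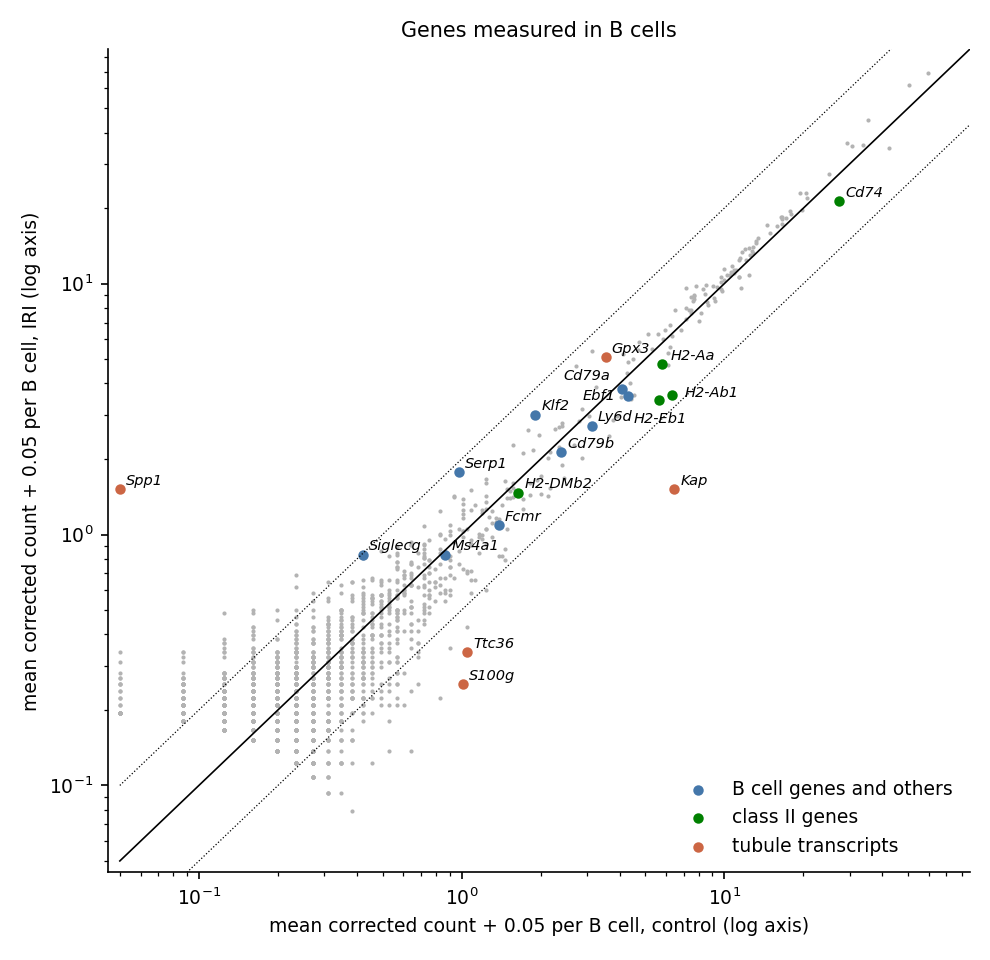
Mean corrected count plus 0.05 per B cell in the control library (x) and the IRI library (y), both on log axes, for the 1879 measured genes; the solid line is equality and the dotted lines are 2-fold. Cd79a, Cd79b, Ms4a1 and Ebf1 lie near equality, and Kap and Spp1 stand outside the 2-fold lines. The labelled class II genes lie below equality and inside the 2-fold line, with H2-Ab1 and H2-Eb1 nearest to that line.

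Transcripts of kidney tubules were present in the B cells and differed between the libraries. Kap, an androgen-regulated protein of proximal tubules, had B cell means of 6.41 (26 of 27 cells) and 1.46 (52 of 69 cells), T cell means of 5.31 and 1.21, and proximal tubule means of 36.8 and 13.5. Spp1, the secreted phosphoprotein osteopontin, was listed at 0 in all 27 control B cells and had a mean of 1.46 in IRI (50 of 69 cells). T cells had Spp1 means of 0.0508 and 0.928, proximal tubule cells 0.1995 and 5.62, and cells annotated as injured proximal tubule in IRI 38.4. Gpx3, a secreted peroxidase of the tubule, had B cell means of 3.48 and 5.04 and T cell means of 3.44 and 3.68.

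The whole marker lists hold Kap, Gpx3 and Spp1 too, so their sums are not separate from the values above. Of 10 measured proximal tubule markers 5 were past 2-fold lower in B cells (Kap, Ttc36, Acsm2, Keg1 and Slc27a2), against 4.79% of all measured genes, with a median of -0.86 in B cells, -1.28 in T cells and -0.98 in macrophages. In B cells 8 of the 10 log2 ratios lay below 0 and 2 above, Gpx3 among the latter. Summed per cell, proximal tubule markers had means of 17.04 and 10.9 in B cells, of which Kap gave 6.41 and 1.46. In T cells the sums were 17.2 and 8.91. Injured tubule markers summed to 0.0 and 1.80 in B cells and to 0.119 and 1.196 in T cells. Spp1, the only one of them measured, gave 1.46 of the sum in IRI B cells. Among the 568 measured genes that were more abundant in proximal tubule cells, 51 were past 2-fold higher and 32 lower in IRI B cells. Among the other 1311, 120 were higher and 58 lower. The shares past 2-fold in either direction were thus close, at 14.6% of the 568 and 13.6% of the 1311.

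**Figure D5:**
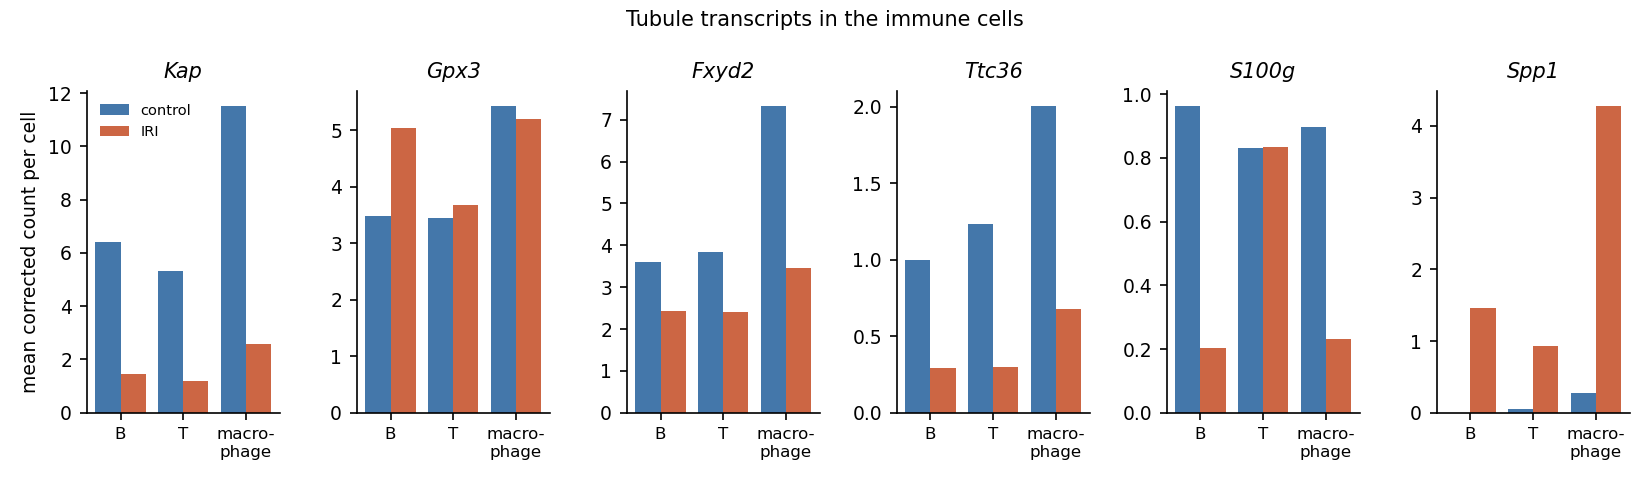
Mean corrected count per cell of 6 kidney tubule transcripts in B cells, T cells and macrophages, control in blue and IRI in orange, each panel with its own axis from 0. Kap, Fxyd2 and Ttc36 are lower and Spp1 is higher in IRI in all 3 immune types, and S100g is lower in B cells and macrophages with equal means in T cells.

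Markers that define other blood cells were largely listed at 0 in the B cells, and some shared or abundant ones were not. Of 12 T cell markers 9 were listed at 0, including Cd3e, Cd3g, Cd4 and Cd8a, and the summed mean was 0.333 in control and 0.246 in IRI B cells against 8.58 and 8.87 in T cells. Cd2, which mouse B cells also express, made up most of it (0.333 and 0.203). Of 14 macrophage markers 7 were listed at 0, including C1qc, Adgre1 and Cd68, with summed means of 0.0741 and 0.565 and at least 1 marker above 0 in 1 of 27 and 27 of 69 cells. Lyz2, a macrophage lysozyme, was above 0 in 0 of 27 control and 11 of 69 IRI B cells and had T cell means of 0.0339 and 0.175. Macrophages themselves had Lyz2 means of 3.15 and 15.1.

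Neutrophil markers were above 0 in 0 of 27 and 9 of 69 B cells, with 5 of 8 listed at 0. Natural killer cell markers were above 0 in 0 and 2 cells, and 7 of 10 dendritic cell markers were listed at 0. At least 1 dendritic cell marker was above 0 in 14 of 27 and 28 of 69 B cells, chiefly Cst3, a protease inhibitor gene that many cells express (11 and 26 cells). Red cell markers were above 0 in 14 of 27 control B cells (51.9%) and 5 of 69 IRI B cells (7.25%), with Hbb-bs in 9 and 2 of them. Of 8 endothelial markers 6 were listed at 0. In IRI 4 of 69 B cells held a Cd3 gene (1 cell) or a C1q gene (3 cells) and in control 0 of 27. Without those 4 cells the ratio of shares among all cells was 3.07 (1.93 to 5.0). The part of RNA from other cells, or of mixed droplets, in the gene differences was not tested.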

How the data were processed

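The series holds single-cell RNA sequencing of 1 control and 1 IRI kidney. Per the submitters' processing notes, Cell Ranger 3.0.0, Seurat 3.2 and the mouse build mm9 were used; doublet removal is not given in the sources used here. The deposited table used for expression holds 15169 genes and 11759 cells as a score: depth-corrected counts of the SCTransform kind, whole numbers that are not raw counts. The authors also deposited the natural log of these values plus 1 and residuals for 3000 genes, and neither was used for a result. The deposited annotation gives library, raw UMIs, genes, cluster (29) and type (18 names) of each cell without separators. In 3615 cells (2 of them B cells) more than 1 split into UMIs and genes was possible, and the smallest UMI value with at least 200 genes was kept.

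Means per cell and log2 ratios (0.05 added) were computed with Python 3.11.15, numpy 2.4.6, scipy 1.17.1 and pandas 2.3.3. The annotated types Cx3cr1+ Mac, Ccr2+ Mac and Resid. Mac were joined as macrophages, and proximal tubule means cover PT-S1, PT-S2 and PT-S3. A gene counts as measured if its corrected counts sum to at least 10 over the 96 B cells, and a list needed 4 measured members. For a share the 95% interval is Clopper-Pearson's, and for a ratio of shares it is the exact conditional one; a share of 0 was limited by 3 counts of the total. The design had allowed for raw counts. Since the table holds corrected values, no Poisson interval is given, cells were not thinned and doublets were not called. The ratio, its limit and the interval were tested on simulated data. How reliable the 2-fold calls are for genes near 10 summed corrected counts was not tested.

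Named genes are the 12 highest and 12 lowest log2 ratios with at least 30 summed corrected counts, above 0 in at least 20% of the B cells of the higher library, and no more abundant in proximal tubule cells. Over T cells or macrophages they are the 12 with the highest lower-of-2 ratio and a mean of at least 0.2 in both libraries. Both leave out haemoglobin, ribosomal protein, Rik, Gm-number and mitochondrially encoded genes. Members of 24 gene lists and 9 marker lists (386 of 426 genes analysed) are named besides, and genes listed at 0 in control are counted as higher without a ratio. The cells and lists were chosen with earlier results of these data known. Alternatives were other added values, limits, scalings, depth limits, denominators and subsets of B cells. Promoters are from RefSeq (GRCm38.p6), another build than the files', so no coordinate of the expression data is given; the EBF-type element was added later. Light chain genes were not analysed here. Results on a few list genes are not reported here.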

Additional observations from a re-analysis of the deposited data

Results flagged for a closer look

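Of the named and list genes, 3 were past 2-fold in opposite directions in the B cells and in another immune type, IRI over control. These differences were not tested, because each type has 1 library per group.

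Mif4gd, whose product binds translation factors, had a log2 ratio of -1.01 in B cells (means 0.519 and 0.232, above 0 in 10 of 27 and 14 of 69 cells) and 1.19 in T cells (means 0.0847 and 0.258).

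Dusp1, the stress kinase phosphatase, had a log2 ratio of 1.63 in B cells (means 0.0741 and 0.333) and -1.26 in macrophages (means 1.76 and 0.709). In T cells it was at 0.678 and 0.454.

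Hbb-bs, a beta-globin of red cells, had a log2 ratio of -2.28 in B cells (means 0.333 and 0.0290, above 0 in 9 of 27 and 2 of 69 cells) and 3.47 in T cells (means 0.542 and 6.52). The share of T cells above 0 for Hbb-bs went the other way from their mean, from 44.1% to 12.4% (12 of 97 cells).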

How the results depend on the processing

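The B cell share ratio of 3.26 was 1.30 among immune cells, 5.86 among cells with at least 2000 raw UMIs and 1.03 among immune cells with at least 1000 UMIs (added after the data were seen); the cause was not tested. It moved by less than its interval in 4 other settings. Counts of genes past 2-fold in B cells depended on the limit for low values. Genes higher in IRI numbered 171, 16 with 0.2 added, 11 with at least 30 summed values and 611 with no filter. Genes lower in IRI numbered 90, 169 with 0.01 added, 15 with 0.2, 12 with at least 30 summed values and 518 with no filter. Genes over T cells in both libraries numbered 115, 50 with 0.2 added and 49 with at least 30 summed values. Genes over macrophages numbered 212, 345 with 0.01 added, 70 with 0.2, 80 with at least 30 summed values and 131 in cells with at least 1000 UMIs. Fewer genes were tested under the stricter limits (545 of 1879) and more with no filter (8785).

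The proximal tubule median of -0.86 was -1.01 with 0.01 added, and the other 179 list medians under alternatives stayed on their side of 2-fold. The class II median kept its sign in every alternative. Signs of medians near 0 turned for the identity list (0.00 without cells holding a Cd3 or C1q gene, 0.12 without the deepest cell of each library), the receptor list (0.05 in cells with at least 1000 UMIs), the class I list (0.12 with no filter, 0.01 with other totals), the glucocorticoid list (0.10 and 0.01), the interferon list (-0.05 with at least 30 summed values, -0.01 without cells holding a Cd3 or C1q gene), the follicular list (0.08 with at least 30) and the survival list (-0.14 with no filter). Of 178 named and list genes, 1833 values under alternatives kept their call, 24 passed the limit newly, 29 no longer passed it and 0 changed sign past it.

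No paired analysis was possible because each group has 1 library. No library could be left out. The kappa share was not run, and the marker alternative used 3 markers. With 27 control cells, means under about 1 rest on few counts.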
